A study of Mus musculus with 4 samples.

Results

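The Pax family comprises 9 mouse genes, Pax1 to Pax9, and was followed through DNA methylation in the livers of 4 male mice. Its members were taken by name from the RefSeq annotation of GRCm38, and every CpG cytosine of the gene bodies and of 5 kb on each side that was read at least 10 times in all 4 mice was used. These common cytosines numbered 1758, of 1276597 in the series, in 9 of 25745 annotated genes. Enhanced reduced representation bisulfite sequencing (ERRBS) reads fragments enriched for CpGs after bisulfite treatment, and the methylation of a cytosine is the percent of its reads that stayed C. It does not separate 5-methylcytosine from 5-hydroxymethylcytosine. The groups were Mixed, 2 mice of an undefined background that includes C57BL/6J and other strains, and B6, 2 C57BL/6 mice. Where 4 values stand in a row, the Mixed mice come before the B6 mice and number 1 before number 2 (Mixed-1 to B6-2). All 4 were males on a normal diet, aged 6 to 8 weeks, and total liver was taken. The 2 groups were kept at different institutions, so strain, housing and sequencing depth cannot be told apart. The median coverage of the Pax cytosines was 44 and 48 in the Mixed mice, and 77 and 71 in the B6 mice.

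Pax proteins are transcription factors that bind DNA through a paired domain, and they set the identity of organs and cell lineages in the embryo. Pax1 and Pax9 act in the skeleton and pharyngeal pouches and lack a homeodomain. Pax2, Pax5 and Pax8 carry part of one and act in kidney, B cells and thyroid. Pax3 and Pax7 carry a whole homeodomain and act in muscle and neural crest, whereas Pax4 and Pax6 serve the pancreatic islet and, for Pax6, the eye. None of them is a defining factor of the adult hepatocyte, and their expression was not measured here. Total liver holds several cell types, so that partial methylation in every cell and full methylation in some of the cells cannot be told apart. Of 8 hepatocyte markers, 2 had at least 3 common cytosines in the promoter, Hnf4a at 28.7% ± 3.97 (SD, n = 4) and Fgb at 30% ± 5.93. The promoter of the B cell marker Cd79b was at 82.6% ± 3.25. Those of the endothelial marker Kdr (1.71% ± 0.175) and of the bile duct markers Krt19 (3.81% ± 1.03), Epcam (2.7% ± 0.994) and Krt7 (27.7% ± 2.67) were lower than the hepatocyte ones on average, so that promoter methylation did not set the hepatocyte markers apart.

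The Pax genes were hypomethylated, that is under 20%, at 1517 of their 1758 cytosines (86.3%). Hypermethylated cytosines, over 80%, numbered 97 (5.52%), and 144 (8.19%) lay in between. Over all common cytosines of the series 65.3% were hypomethylated and 23.1% hypermethylated. The mean over the Pax cytosines was 11.8% and 11.9% in the Mixed mice, and 11.4% and 11.5% in the B6 mice. The same mean over all common cytosines was between 28.4% and 28.7%. The fragments behind these values are chosen by the digest, and they fell unevenly on the family. Pax2 held 445 common cytosines, Pax5 417, Pax7 310, Pax6 205, Pax3 140, Pax1 126, Pax9 85, Pax8 30 and Pax4 none.

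Promoters, the 1000 bp on each side of a curated start, were hypomethylated in each of the 7 genes with at least 3 common cytosines there. Among all genes 88.5% of promoters were under 20%, so this count is near the background. The lowest mean was that of Pax9, at 1.19%, 1.34%, 1.2% and 1.3%. Pax3 was at 1.32% ± 0.309 (SD, n = 4), Pax1 at 1.89% ± 0.398, Pax6 at 2.13% ± 0.16, Pax2 at 2.5% ± 0.248 and Pax7 at 2.75% ± 0.254. Pax5 was the highest at 7.72%, 7.37%, 6.39% and 8.76%, on 5 cytosines. The mice of each gene overlapped with those of the next gene in this order up to Pax7, while Pax5 did not overlap with any other promoter. The family mean was 2.77% ± 0.143. It lay 6.08 points under the mean of 15639 other genes (8.85%), but the median Pax promoter, at 2.13%, lay above the median of the others, at 0.364%. The difference of the means was -1.9 points with at least 10 cytosines per promoter and -0.172 points over all cytosines instead of gene means. Between 65.5% and 83.7% of the other genes had a lower promoter mean than a given Pax gene.

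A pair of promoters is shown, Pax6 because it was measured closely and Pax5 because it was the highest. The bases shown were at 3.19% ± 0.455 in Pax6 and at 7.56% ± 0.976 in Pax5. Each run is the 250 bases before the first start from RefSeq (GRCm38), on the strand of the gene, and capitals mark a CpG with a common cytosine on either strand. Pax6 lies at chr2:105668646-105668895 on the plus strand with 15 CpGs, and Pax5 at chr4:44710695-44710944 on the minus strand with 19.
Pax6: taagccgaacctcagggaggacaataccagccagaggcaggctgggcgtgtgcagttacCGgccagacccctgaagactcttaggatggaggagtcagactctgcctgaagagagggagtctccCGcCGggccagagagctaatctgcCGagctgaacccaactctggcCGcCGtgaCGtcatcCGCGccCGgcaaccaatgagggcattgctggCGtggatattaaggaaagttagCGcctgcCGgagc
Pax5: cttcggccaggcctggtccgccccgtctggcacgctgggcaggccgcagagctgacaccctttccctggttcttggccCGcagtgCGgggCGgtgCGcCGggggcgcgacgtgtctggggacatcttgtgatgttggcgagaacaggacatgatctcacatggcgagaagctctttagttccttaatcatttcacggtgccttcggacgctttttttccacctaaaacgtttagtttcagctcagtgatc
In Pax6, 13 of the CpGs were measured and they run up to the start. In Pax5 only the 5 capitals were measured, although more CpGs stand around them.

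The 5′ flank, 5 kb before the gene, was also low. Its family mean was 3.58%, 3.54%, 3.18% and 2.98%, or 3.32% ± 0.291 (SD, n = 4), against 47% ± 0.208 in 5596 other genes. All 7 measured Pax flanks were under 20%, and 37.4% of the flanks of all genes were. They ran from 0.646% ± 0.396 in Pax2, through 1.84% ± 0.615 in Pax6, to 5.38% ± 1.04 in Pax7 and 5.65% ± 1.22 in Pax1. The Pax1 value includes a single cytosine at 59%. With flanks of 2000 bp, which leave that cytosine out, Pax1 was at 1.84% ± 0.651. The difference from the promoters of the same genes was 0.548 ± 0.362 points, above 0 in each mouse, against 34.5 ± 0.126 in 4182 other genes. An exact sign-flip permutation over the 4 mice (two-sided) gave p = 0.125, which is the smallest this design can give. With flanks of 2000 bp the difference was -0.559 points, on a set that lost Pax2 and Pax3. In Pax3 the 29 flank cytosines all belong to the promoter of Gm33152, a long non-coding RNA that starts in the flank. No Pax gene had 3 common cytosines in its 3′ flank.

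**Figure D1:**
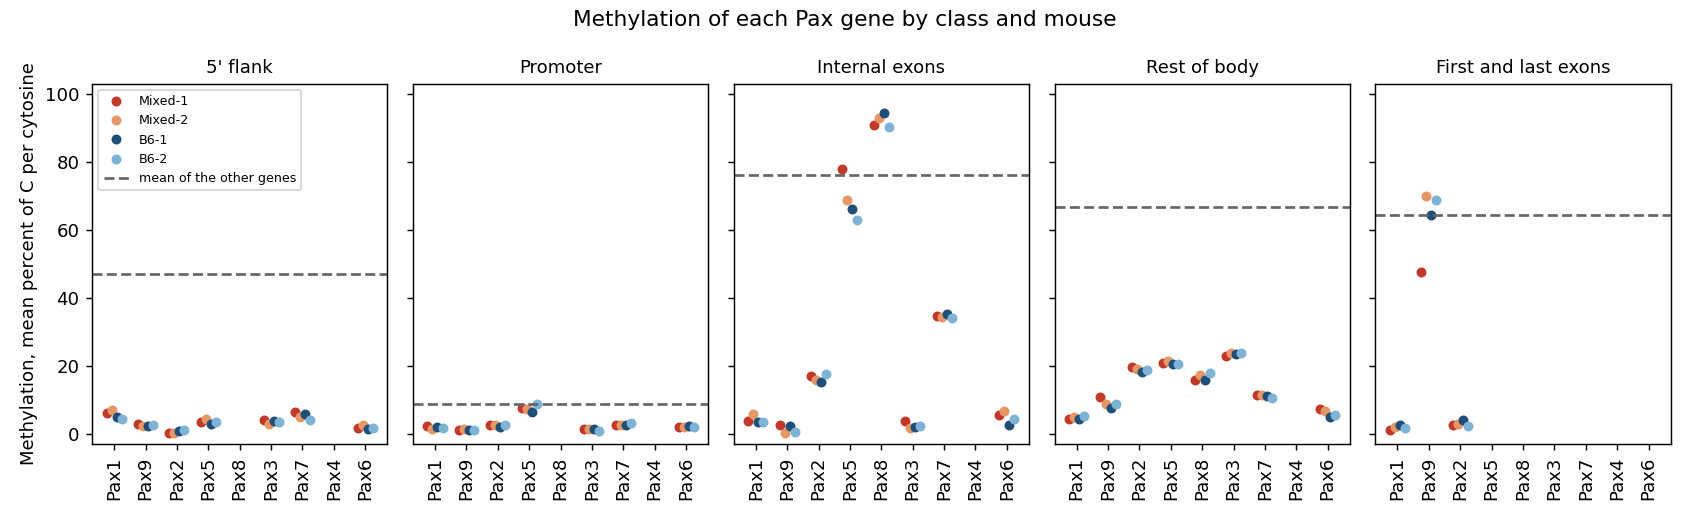
Methylation of each Pax gene (x axis) as the mean percent over its common cytosines (y axis), with 1 point per mouse in each of 5 classes and at least 3 cytosines per point; the dashed line is the mean of all other genes. Flanks and promoters sit under 9% in every mouse, while internal exons spread from 1.51% in Pax9 to 92.1% in Pax8.

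Internal exons of most genes in these livers were methylated, with a mean of 76% ± 0.228 and a median of 86.7% over 5359 other genes. In the 8 measured Pax genes the mean was 29.6%, 28.3%, 27.7% and 27%, and the median gene was at 10.6%. The family mean was 28.1% ± 1.11 (SD, n = 4), 47.8 ± 1.19 points lower than that of the other genes, and lower in 4 of 4 mice (exact sign-flip permutation, p = 0.125, the smallest possible). Of the 8 genes 5 were under 20%, and of the genes in the background 7.62% were. Those 5 were Pax9 (1.51% ± 1.17), Pax3 (2.51% ± 0.954), Pax1 (4.18% ± 1.03), Pax6 (4.82% ± 1.72) and Pax2 (16.4% ± 0.976). The value of Pax2 was 4.1% at a coverage of at least 20 and 10.1% from pooled reads, but 24.5% over all sites of each mouse, which is over 20%. Pax7 was at 34.6% ± 0.558 and Pax5 at 69% ± 6.48. Pax8 was the highest, at 90.9%, 92.9%, 94.3% and 90.2%, and did not overlap with Pax5. Internal exons lay 16.2 ± 1.29 points above the promoters of the same 7 genes, against 70 ± 0.242 in 4475 other genes, and 6 of the 7 were higher in every mouse. At a coverage of at least 20 the difference was 6.95 points, on a set that lost Pax5. With promoters of 2000 bp on each side it was 29.3, on a set that lost Pax9 and gained Pax8. These values are therefore not shifts within the same genes.

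The family mean of internal exons is a mean over unlike exons. Of 67 internal exons, taken from the curated transcript with the most exons, 16 held a common cytosine. Their means fell into a low group of 11 under 10% and a group of 5 over 50%, with none in between. The first measured internal exon was low in 6 genes and high in Pax5 and Pax8. In Pax1, exon 2 was at 3.18%, 4.89%, 2.54% and 3% on 31 cytosines, of which 16 lie within 1000 bp of the start and count as promoter, and the other 15 were at 4.57% ± 1.82. In Pax9 exon 2 was at 2.68%, 0.4%, 2.35% and 0.625% on 5. Exon 3 of Pax2 was at 3.95% ± 0.834 and exon 4 at 5.05% ± 1.48, whereas exon 5 was at 59%, 59.6%, 56.5% and 63.4%. Exons 2 and 3 of Pax7 were at 8.67% ± 0.922 and 5.78% ± 3.52, whereas exon 6 was at 86.8%, 85.9%, 89.1% and 88.2%. The mice did not overlap between the low and the high exons of either gene.

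**Figure D2:**
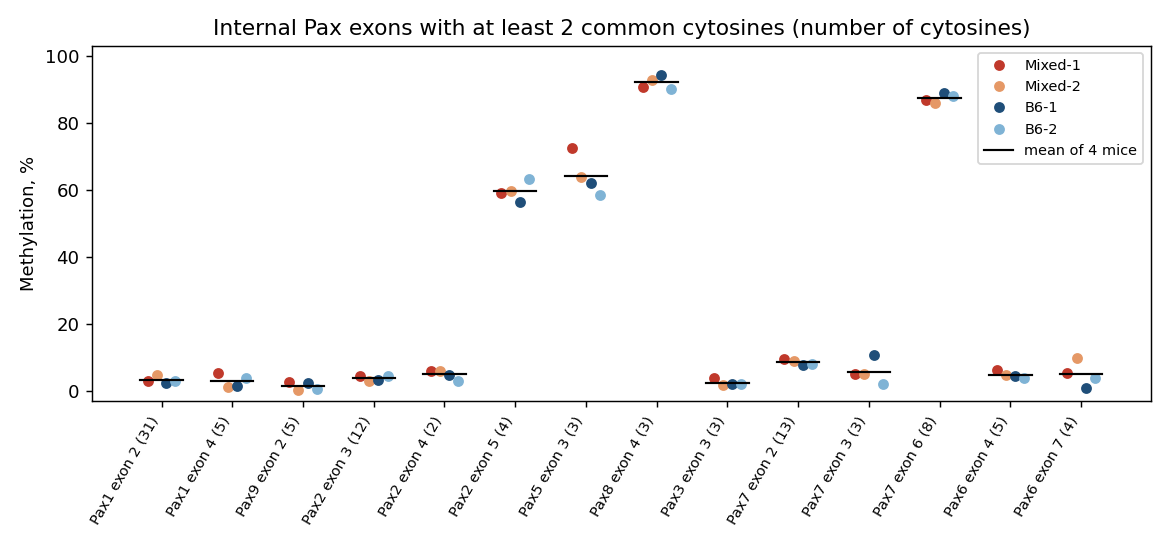
Internal exons with at least 2 common cytosines (x axis, number of cytosines in brackets) against the mean percent methylation (y axis), with 1 point per mouse and a line at the mean of 4 mice. Here 10 exons sit under 10% and 4 over 50%, and Pax2 and Pax7 hold exons of both kinds.

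Both states occurred on exons that match each other in sequence. Exon 4 of Pax2, exon 3 of Pax5 and exon 4 of Pax8 each have 198 bases and code for part of the paired domain. Base by base, without gaps, Pax2 and Pax5 were identical at 79.3% of the places, Pax2 and Pax8 at 83.3%, and Pax5 and Pax8 at 82.3%. They are shown to compare the same stretch of coding sequence at 5.05%, 64.3% and 92.1%. Runs are on the strand of the gene, 5′ to 3′, in GRCm38, and capitals mark a CpG with a common cytosine. Pax2 is at chr19:44761688-44761885 on the plus strand, and Pax5 at chr4:44691835-44692032 and Pax8 at chr2:24442940-24443137 on the minus strand.
Pax2 exon 4: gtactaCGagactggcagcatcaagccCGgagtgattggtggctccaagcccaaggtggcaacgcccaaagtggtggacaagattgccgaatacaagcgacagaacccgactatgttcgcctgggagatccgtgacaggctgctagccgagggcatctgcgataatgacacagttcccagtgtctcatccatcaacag
Pax5 exon 3: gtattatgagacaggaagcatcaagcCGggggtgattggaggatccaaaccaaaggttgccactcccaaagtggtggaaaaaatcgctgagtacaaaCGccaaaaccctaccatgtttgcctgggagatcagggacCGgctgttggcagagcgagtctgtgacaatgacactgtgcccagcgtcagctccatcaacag
Pax8 exon 4: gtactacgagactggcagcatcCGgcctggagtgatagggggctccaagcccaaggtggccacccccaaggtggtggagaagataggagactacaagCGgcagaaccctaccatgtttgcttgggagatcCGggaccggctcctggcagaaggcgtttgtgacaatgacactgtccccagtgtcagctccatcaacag
The CpG at base 98 was measured in both Pax5 and Pax8. It was at 38.9%, 37.5%, 15% and 39.4% in Pax5, on 18 to 33 reads, and at 87.5%, 95%, 98% and 85.4% in Pax8, on 16 to 49 reads. No mouse of one gene overlapped with a mouse of the other. Pax2 carries a CpG at the same place, but it was not among the common cytosines, and the 2 measured ones of Pax2, at bases 7 and 28, were at 1.84% and 8.25%. The 3 exons also differ in where they lie. The measured cytosines of the Pax2 exon lie 4.79 kb or more from the nearest of its 3 starts, and 15.1 kb from the first, while those of Pax5 and Pax8 lie at least 18.7 and 32.5 kb from a single one. The same held for all 16 measured internal exons, as the cytosines of the 11 low ones lay within 4.81 kb of the nearest start of their gene and those of the 5 high ones at least 18.7 kb from it.

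Exon 3 of Pax3 and of Pax7 match each other in the same way and also code for part of the paired domain. They have 130 bases each and 78.5% identity, and both were low, at 2.51% ± 0.954 and 5.78% ± 3.52. Exon 6 of Pax7, by contrast, was at 87.5% ± 1.4 on 8 cytosines. Its opening bases code for the end of the homeodomain, and its 6 measured CpGs lie at bases 16 to 80. The 3 exons are shown to set a low and a high exon of Pax7 side by side. All are on the minus strand, with Pax3 at chr1:78193740-78193869 and the exons of Pax7 at chr4:139829497-139829626 and chr4:139780761-139780926.
Pax3 exon 3: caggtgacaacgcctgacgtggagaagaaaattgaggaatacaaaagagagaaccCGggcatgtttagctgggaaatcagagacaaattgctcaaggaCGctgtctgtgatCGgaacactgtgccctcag
Pax7 exon 3: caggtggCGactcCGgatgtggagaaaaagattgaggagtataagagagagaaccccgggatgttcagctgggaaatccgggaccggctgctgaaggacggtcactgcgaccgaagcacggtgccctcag
Pax7 exon 6: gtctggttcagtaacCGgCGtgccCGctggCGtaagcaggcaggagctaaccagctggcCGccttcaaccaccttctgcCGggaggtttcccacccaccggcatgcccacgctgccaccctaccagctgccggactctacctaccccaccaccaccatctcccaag
Both Pax7 exons hold 9 CpGs. In exon 6 the single cytosines ran from 76% to 93.8%, and in exon 3 from 2.22% to 8.25%.

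The rest of the body, mostly introns, was at 14.2%, 14.2%, 13.3% and 13.9% as the mean of 8 genes, against 66.8% ± 0.373 in 10528 other genes. The difference was 52.9 ± 0.23 points, lower in 4 of 4 mice (exact sign-flip permutation, p = 0.125). Of the 8 genes 6 were under 20%, and 11% of all genes were. Pax1 was the lowest at 4.81% ± 0.47, and Pax5 and Pax3 the highest at 20.8% ± 0.401 and 23.6% ± 0.444. The annotated Pax1 gene begins before its only curated start. Its value therefore includes cytosines 2.49 to 2.76 kb before that start, which also count in the bin from 2 to 5 kb below. The 6 intronic cytosines of Pax1, from 2.56 kb after the start, were at 10.9% ± 1.52. These means hide the order along each gene, which was examined by the distance of each body cytosine from the nearest start of its own gene. From 2 to 5 kb the Pax genes were at 6.07% ± 0.724 and the other genes at 61.5% ± 0.361. From 5 to 10 kb they were at 6.67% ± 0.547 and 71.3% ± 0.326. From 10 to 20 kb the Pax mean was 34.6% ± 2.03 (4 genes), from 20 to 50 kb 55% ± 1.58 (5 genes), and beyond 50 kb 54.8% ± 0.905 (4 genes). Each mean was lower than that of the other genes, which was between 74.5% and 77.5%. The genes differ between bins, and the SD is over mice only. Single genes spread widely, from 2.98% in Pax7 to 64.3% in Pax5 at 10 to 20 kb. Pax8 at 20 to 50 kb (87.7% ± 1.76) and Pax3 beyond 50 kb (82.1% ± 3.04) were above the mean of the other genes. The lowest were Pax5 at 20 to 50 kb (7.4% ± 0.431) and Pax2 beyond 50 kb (21.1% ± 0.463). Of the 99 Pax5 cytosines, 92 lie in a single patch at 46 kb. Of the 86 Pax2 cytosines, 46 form the promoter of 1700039E22Rik, a long non-coding RNA. The remaining Pax genes of these bins were between 48.4% and 67.6%.

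**Figure D3:**
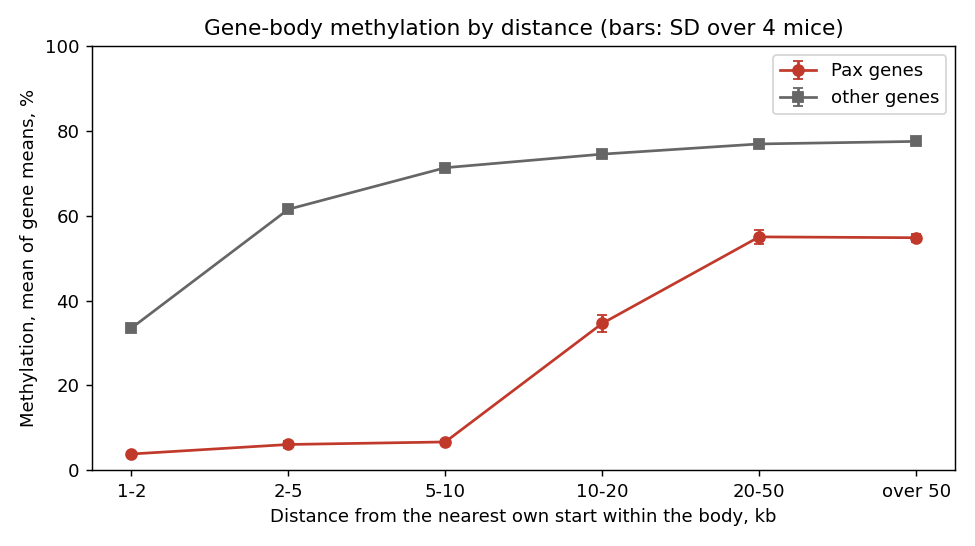
Body methylation outside promoters by distance from the nearest start of the same gene (x axis, kb), as the mean of gene means in percent (y axis), for Pax genes and all other genes with at least 3 cytosines in the bin; bars are the SD over 4 mice. The Pax mean stays under 7% up to 10 kb, where the other genes reach 71.3%. The Pax mean remains lower beyond, on 4 or 5 Pax genes per bin, with Pax5 the lowest at 20 to 50 kb and Pax2 beyond.

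CpG density differs between the family and other genes, so body cytosines were also compared at like density, counted as the CpGs of the reference in a window of 500 bp around each. At 0 to 9 CpGs the 7 internal exon cytosines of 3 Pax genes were at 68% ± 2.78 and those of other genes at 82.4% ± 0.358. At 10 to 19 CpGs the 43 internal exon cytosines of 5 Pax genes were at 28.2% ± 0.769 and those of other genes at 82.6% ± 0.287. At 20 to 29 CpGs the 30 cytosines of 2 Pax genes were at 4.19% ± 0.512, against 69.7% ± 0.234. At 40 or more, 5 cytosines of 1 gene were at 1.51% ± 1.17 against 12.2% ± 0.312. Over the whole body outside promoters the Pax cytosines minus the others came to -39.6 and -45.2 points in the classes of 10 to 19 and 20 to 29 CpGs, where the Pax cytosines were at 34.7% ± 0.477 and 3.82% ± 0.239. The gap was smaller in the other classes. At 0 to 9 CpGs the values were 59.5% ± 1.41 against 77.1% ± 0.615, at 30 to 39 they were 2.51% ± 0.205 against 18% ± 0.127, and at 40 or more, the class with the most Pax cytosines (385), 1.68% ± 0.104 against 6.25% ± 0.163. The Pax cytosines were lower in each of these classes in 4 of 4 mice (exact sign-flip permutation, p = 0.125 each). Neighbouring cytosines share fragments and are not independent, so these are descriptions of the same mice.

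The stretch of hypomethylated cytosines around a start was measured from the common cytosine nearest to it, within 1000 bp. The walk went outward until 2 consecutive cytosines reached 20% or a gap of over 2000 bp opened. In genes with several curated starts the longest stretch was taken. It was 10.2 kb in Pax7, and 6 of 16467 other genes had a longer one. It was 7.01 kb in Pax6, 6.63 kb in Pax2, 3.9 kb in Pax5, 3.64 kb in Pax1, 2.58 kb in Pax9 and 0.86 kb in Pax3, against a median of 593 bp in the other genes. The stretch began 11.4 kb after the first start in Pax6 and 8.48 kb after it in Pax2. In Pax5 it lay wholly before the start. Pax5 fell to 1.39 kb without B6-1, and Pax7 stayed at 10.2 kb without any 1 mouse. Of the 14 ends 13 were such gaps in coverage. When gaps of up to 5000 bp were allowed the stretch was 30.8 kb in Pax6, 21.8 kb in Pax3, 19.8 kb in Pax7, 12.5 kb in Pax5, 10.1 kb in Pax9, 9.41 kb in Pax2 and 6.79 kb in Pax1. Pax4 and Pax8 had no common cytosine near a start.

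**Figure D4:**
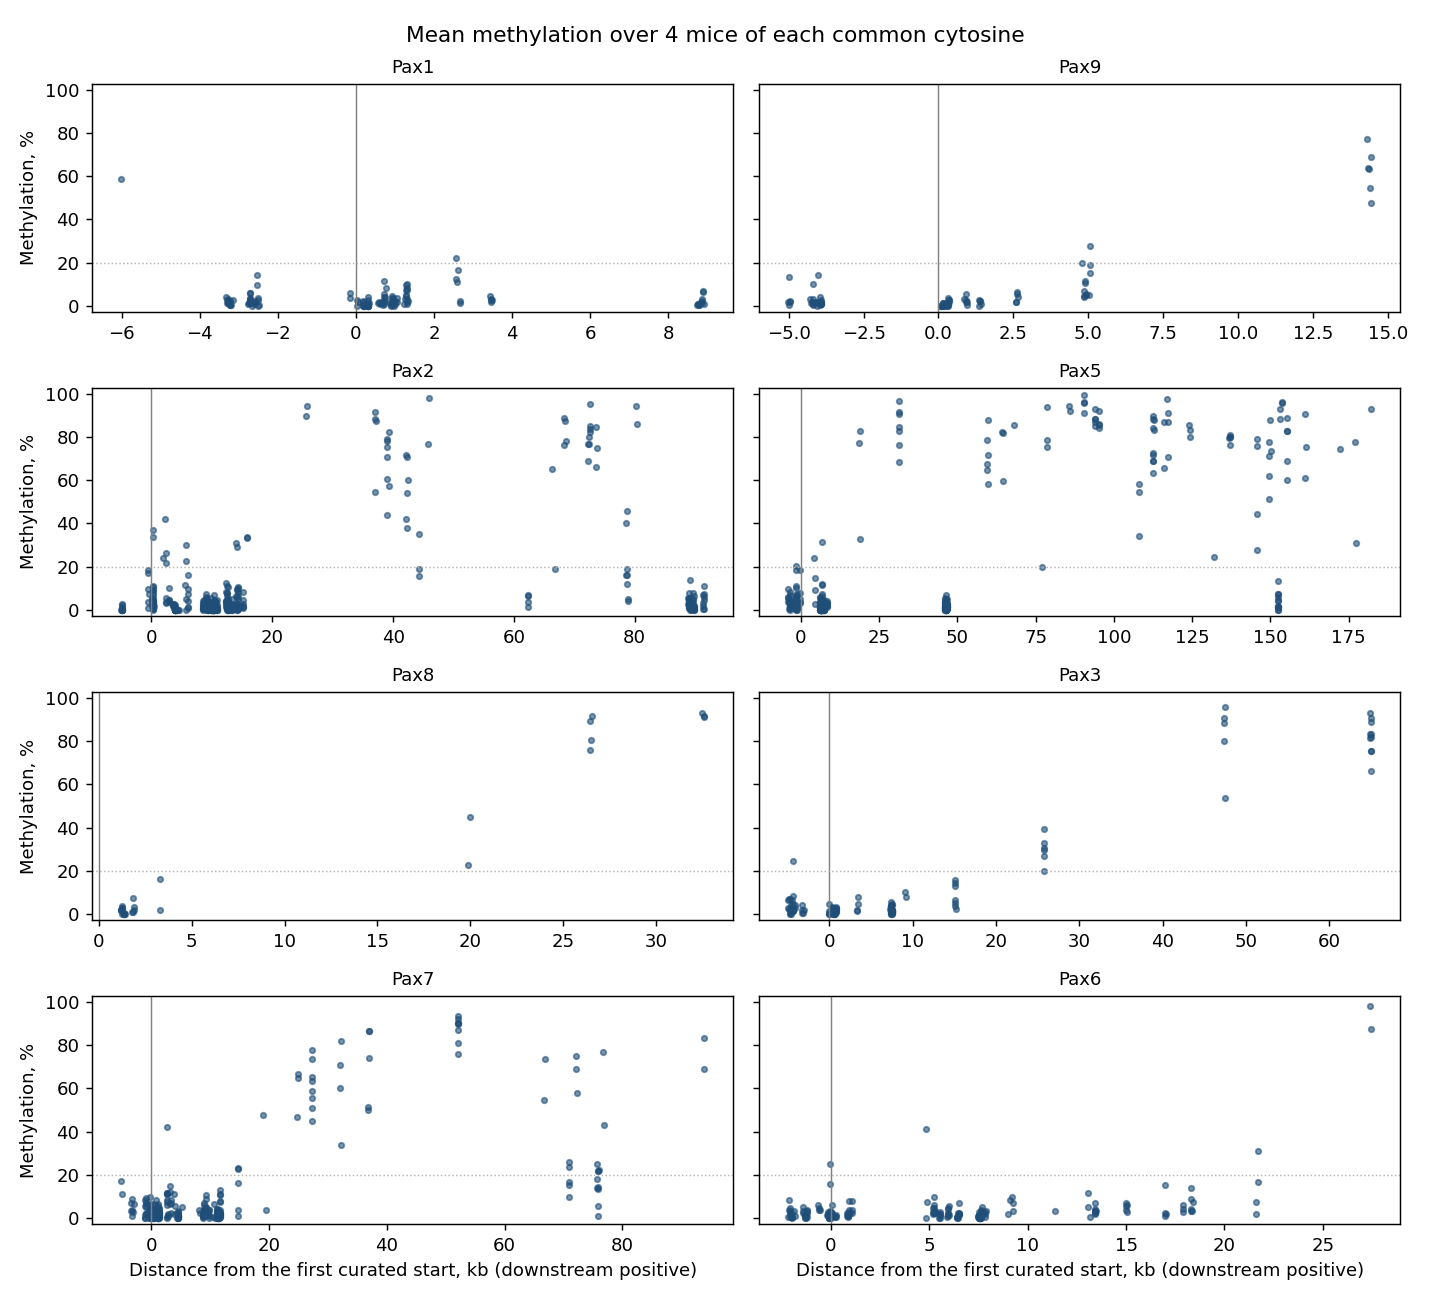
Each panel is 1 Pax gene, with the distance of every common cytosine from the first curated start in kb (x axis, downstream positive) against its mean percent methylation over 4 mice (y axis); the dotted line marks 20%. A low band surrounds the start in the 7 genes measured there, Pax8 has no cytosine near its start, and Pax2 and Pax5 return to low values far inside the gene.

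Pax1 (chr2:147361930-147375049, plus strand), needed for the vertebral column, was low along its whole measured length. Its last exon, 8.74 kb from the start, was at 1.25%, 2.18%, 2.75% and 1.88% on 12 cytosines, while terminal exons of other genes averaged 64.5%. First and last exons outside the promoters of the gene itself were measured in 3 Pax genes. Of these, 2 were under 20%, as were 20.2% of all genes. The other low one was Pax2, at 2.96% ± 0.732 on 27 cytosines. Only 9 of them lie outside the promoter of 1700039E22Rik, and those 9 were at 4.56% ± 1.09. AI646519, a long non-coding RNA of the opposite strand, starts inside the annotated gene, before the Pax1 start. Its promoter held 22 cytosines, at 3.11%, 2.86%, 2.54% and 3.7%. A single cytosine 6.01 kb before the Pax1 start was at 59% ± 9.41. Pax9 (chr12:56691693-56712824, plus strand), its close relative with a role in teeth and the thymus, was low to 4.81 kb, where 12 cytosines were at 11.2% ± 2.24. The last exon of Pax9 was at 47.6%, 69.9%, 64.4% and 68.9%. Mixed-1 was lower than the others there, which rests on 2 of the 6 cytosines, given by mouse with the strain comparison, and without Mixed-1 the mean was 67.7%.

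Pax2 (chr19:44746601-44838269, plus strand), which directs the formation of the kidney, was low through its 3 starts and on to 15.1 kb from the first, in patches of at most 13.6%. In the intron beyond, 2 cytosines at 15.8 kb were at 33.6% ± 3.63, and those at 25.5 and 37 kb at 92% ± 6.03 and 80.6% ± 3.04. Further on, values were mixed, with 56.1% ± 3.01 at 42.2 kb in and behind exon 5, 23.4% ± 3.35 at 44.3 kb and 87.7% ± 1.2 at 45.8 kb. A patch of 4 cytosines at 62.3 kb was at 6.66%, 2.01%, 5.57% and 3.83%, and Mir6405 starts beside it. At the far end of the gene, 88.9 kb from the start, 46 cytosines over the last intron and last exon were at 2.66%, 2.27%, 3.59% and 2.72%. A long non-coding RNA of the opposite strand, 1700039E22Rik, starts there, and the same 46 cytosines make up its promoter.

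Pax5 (chr4:44524748-44710694, minus strand), the B lineage commitment factor, had the most contrast inside its introns. A first patch between 6.05 and 7.36 kb held 150 cytosines at 1.89%, 2.2%, 1.52% and 1.93%, and the non-coding RNA 5730488B01Rik starts nearby. A second one, at 46 kb, held 92 cytosines within 616 bases at 1.59%, 1.7%, 1.62% and 1.19%, and no annotated start lies in it. Another, at 152 kb, held 12 cytosines at 3.96% ± 0.902. Most other intronic patches were methylated, such as 4 cytosines at 90.4 kb with 94.6%, 95.8%, 97.3% and 95.6%. The densest 150 bases of the second patch and the whole of the methylated one are shown to compare their CpG content. Both are on the minus strand, the first at chr4:44664341-44664490 and the other at chr4:44620190-44620315, and capitals mark measured CpGs.
Pax5 intron, hypomethylated: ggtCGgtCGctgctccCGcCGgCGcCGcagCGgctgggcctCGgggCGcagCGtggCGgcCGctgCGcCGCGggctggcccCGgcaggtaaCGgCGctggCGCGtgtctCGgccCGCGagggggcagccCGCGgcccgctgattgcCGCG
Pax5 intron, hypermethylated: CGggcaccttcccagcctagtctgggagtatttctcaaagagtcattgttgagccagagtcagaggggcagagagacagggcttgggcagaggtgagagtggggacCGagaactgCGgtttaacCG
The first run holds 28 CpGs at 83.3% GC, with a CpG count of 1.08 times that expected from its base composition. The other holds 4 CpGs at 57.1% GC, at 0.421 times.

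Pax8 (chr2:24420551-24475599, minus strand), a regulator of thyroid genes, had 30 common cytosines. The 19 between 1.21 and 1.9 kb were at 0.985%, 1.25%, 1.18% and 2.72%. The 2 at 3.28 kb were at 8.97% ± 3.25, those at 19.9 kb at 33.8% ± 8.41, at 26.4 kb 84.4% ± 3.54 and at 32.5 kb, in exon 4, 92.1% ± 1.89. Each patch was higher than the one before it, on 2 to 19 cytosines.

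Pax3 (chr1:78101267-78197136, minus strand) and Pax7 (chr4:139737059-139833530, minus strand), which specify muscle progenitors, followed the same order. Pax3 was at 1.78% ± 0.368 at 7.31 kb on 35 cytosines, 8.6% ± 3.52 at 15.1 kb, 29.8% ± 2.53 at 25.7 kb, 81.7% ± 3 at 47.3 kb and 82.1% ± 3.04 at 64.9 kb. Pax7 was at 1.79% ± 0.201 on 81 cytosines from 10.5 kb, 13.2% ± 2.06 at 14.7 kb, 59.4% ± 5.53 at 24.8 kb and 87.5% ± 1.4 at 52.1 kb. Further in it was lower again, at 18.1% ± 3.79 at 70.9 kb and at 15.6% ± 2.71 at 75.7 kb, with 67.2% ± 5.69 between them.

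Pax6 (chr2:105668896-105698410, plus strand), the eye and islet factor, has 4 curated starts and was low from 2.15 kb before the first to 18.4 kb after it. Cytosines at 21.6 kb were at 10.6%, 17.1%, 12.7% and 16.6%. The last exon, at 27.4 kb, was at 97.7%, 89.3%, 92% and 92.8% on 2 cytosines. Pax6os1, a long non-coding RNA of the opposite strand, starts inside the gene. Its promoter held 18 cytosines, at 2.07%, 2.8%, 2.15% and 2.77%. Pax4 (chr6:28442334-28449340, minus strand), needed for islet beta cells, could not be placed in these comparisons. Its promoter has 11 CpGs in the reference, and 9.15% of genes have fewer.

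Of the factors that work with Pax proteins, here 9 genes with Eya1 and Dach1 among them, 9 of 9 promoters were measured and each was under 20%, with a median of 0.643%. Of 17 known targets, 9 promoters were measured, and 7 were under 20%. With 88.5% of all promoters under 20%, both counts are near the background. The insulin gene Ins1 (87.2% ± 4.24) and the lens crystallin gene Cryaa (87.4% ± 2.4) were over 80%. Targets of the low kind included Met (0.29% ± 0.121) and Ret (0.715% ± 0.0926). Bodies of the partners were mixed, with 3 of the 8 measured under 20%, among them Dach1 at 18.2% ± 0.466, and 3 over 80%, among them Eya3 at 93.6% ± 0.884, while 11% of the bodies of all genes were under 20%.

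Among 780 other protein-coding genes with at least 5 common cytosines in the promoter, internal exons and 5′ flank, the 3 nearest to the family's 3 means were Tbx1, Ssbp4 and Dph1. The distance was 1.75 points for Tbx1, 3.52 for Ssbp4 and 3.9 for Dph1. Tbx1 had 4.13% in the promoter, 28.1% in internal exons and 2.22% in the flank. All 3 classes were under 20% in 58 of the 780 genes (7.44%), and in 4 of the 5 Pax genes that had 5 cytosines in each (80%). That minimum left out Pax3, Pax5 and Pax8, whose internal exons were at 2.51%, 69% and 92.1% on 3, 4 and 3 cytosines, and Pax4.

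The strains were compared next, to ask whether background or housing went with a different methylation of the family. The family means of Mixed and B6 differed by -0.0208 points in promoters, 1.61 in internal exons, -3 in terminal exons, 0.573 in the rest of the body and 0.482 in 5′ flanks. The 2 Mixed mice were both above the 2 B6 mice in internal exons, the rest of the body and the flanks (exact permutation of 2 against 2 mice, p = 0.333 each, the smallest possible). With all sites of each mouse the order was the opposite in the rest of the body (-1.43) and the flanks (-0.102), as it was with pooled reads in the rest of the body (-1.04), again at p = 0.333 by exact permutation. In internal exons the difference was 0.605 and 0.358 points, with overlap, when all sites or a coverage of at least 20 were used. In promoters and terminal exons the strains overlapped (exact permutation, p = 1 each). The value for terminal exons was 0.911 without Mixed-1, and that for promoters turned to 0.0625 without Mixed-2 and to 0.132 without B6-2. For single classes of single genes, limma with Benjamini-Hochberg adjustment over 48434 classes called 0 of 33 in the Pax genes and 0 in all (0%), and so did limma on log2 ratios of pooled reads. At an unadjusted p under 0.05 there were 4 (12.1%), against 6.33% of all classes, and the lowest adjusted p was 0.647 for the 5′ flank of Pax2 (-0.683 ± 0.0934 points, SE).

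A logistic model of the reads of each cytosine, with moderated overdispersion and Benjamini-Hochberg adjustment in limma, called 0 of 1758 Pax cytosines as strain-variable at an adjusted p under 0.01 and 25 points. In the series it called 70 (0.00548%). At an unadjusted p under 0.05 there were 40 Pax cytosines (2.28%), against 2.03% of all. Fisher's exact test on pooled reads, which ignores the spread between mice, called 2 of the 1758 Pax cytosines. In the series it called 1613 (0.126%), and limma on log2 ratios called 0 in both. Without Mixed-2 the model called 2, the Pax9 cytosines described next.

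**Figure D5:**
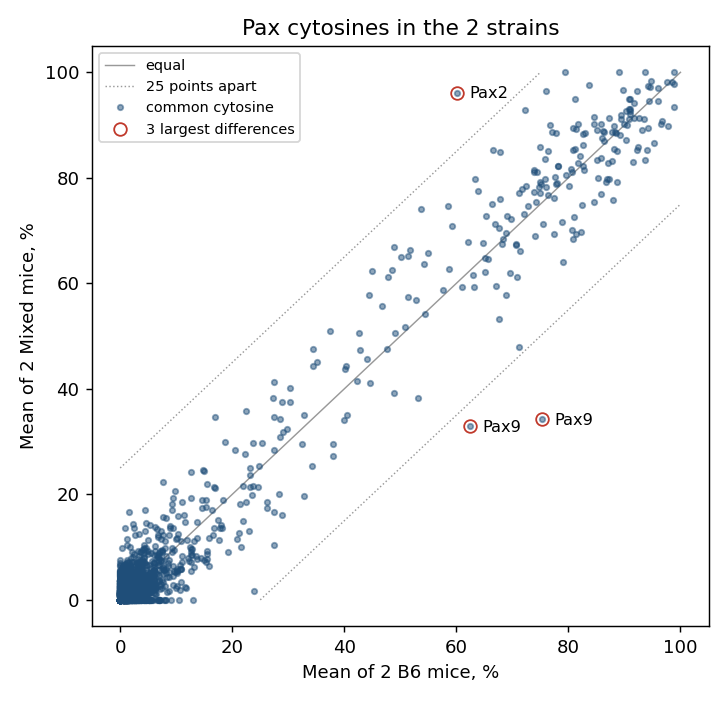
Mean percent methylation of each of the 1758 Pax cytosines in the 2 B6 mice (x axis) and in the 2 Mixed mice (y axis); the solid line is equality, dotted lines are 25 points apart, and rings mark the 3 largest differences. The other cytosines lie between the dotted lines, and the ringed ones belong to Pax9 (2) and Pax2 (1).

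The 3 cytosines with the largest strain differences are described by mouse. On the reverse strand of the last exon of Pax9, the cytosine at chr12 position 56709893 was at 0% in Mixed-1 and at 68.5%, 80.3% and 70.2% in the other 3 mice. The one at position 56709924 was at 0%, 65.8%, 67.6% and 57.1%. Mixed-1 alone was at 0, on 41 and 43 reads, which allows up to 7.32% and 6.98% by counting error alone. Between them, on the same strand, position 56709915 was at 69.8%, 71.1%, 75% and 60.4%, so Mixed-1 was not low there. Adjusted p was 1 for both in all 4 mice and 1.93e-06 and 0.000166 in the limma-moderated model without Mixed-2. The first of them lies within the coding sequence, whose last 40 bases, chr12:56709868-56709907 on the plus strand, are shown with its CpG in capitals.
Pax9 last exon: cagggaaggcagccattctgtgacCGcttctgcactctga
The remaining one, in an intron of Pax2 at chr19 position 44785607, was at 96.6% and 95.7% in the Mixed mice and at 56.9% and 63.3% in the B6 mice, so that the strains did not overlap. The difference was 36 points, with an unadjusted p of 0.000297 and an adjusted p of 0.464 in the limma-moderated model, and an adjusted p of 2.73e-05 in Fisher's exact test. Its coverage was 29 and 23 reads in the Mixed mice, while the neighbour at 44785589 on the same strand had 59 and 42. In the B6 mice it was 137 and 120 reads, against 140 and 120 for that neighbour. The part of this coverage in the difference was not tested. The site is shown within chr19:44785576-44785636 on the plus strand.
Pax2 intron: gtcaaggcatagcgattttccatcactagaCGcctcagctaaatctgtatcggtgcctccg
The neighbours at 44785589 and 44785627 were between 56.4% and 85.7% in all mice, and the strains overlapped at each.

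The mice also shared most of the Pax cytosines they covered. Of 2155 that had 10 reads in at least 1 mouse, 81.6% had them in all 4, against 79.4% in the series. Cytosines present in both B6 mice only made up 7.56%, against 7.75%, and ranged from 0% in Pax4 and 2.7% in Pax1 to 14.7% in Pax6 and 18.8% in Pax8.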

How the data were processed

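Liver DNA of 4 mice, 2 Mixed and 2 B6, was profiled by ERRBS, with each mouse as 1 replicate. The authors mapped single-end reads to mm10, with BSMAP per the paper's methods and with Bismark and SAMtools named in the submitters' processing notes. The deposited files give the coverage as counts of reads per CpG cytosine and strand, without normalization and at least 10, and the percent of C and of T among them. Coverage summed over cytosines, where a read counts once for each CpG it spans, ranged from 60654199 to 99215153 per mouse. Amplified reads are not independent molecules, so limits from counts cover counting error only.

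Sites on chromosomes 1 to 19, X and Y were placed on GRCm38 with RefSeq genes that have a curated transcript. Each cytosine of a gene fell in 1 class, taken in this order, namely promoter (within 1000 bp of a curated start), internal exon, first or last exon, rest of the body, and flank (5000 bp). A class of a gene needed 3 common cytosines, its value is the mean percent over them, and the family value is the mean over genes. Class values, family comparisons, stretches and strain calls were recomputed without Mixed-1, Mixed-2, B6-1 or B6-2 in turn. The alternatives of the closing part were run for class values, family comparisons and strain calls. Exon means, distance bins, density classes, patches, gene lists and likeness were computed under the main setting only. No 3′ flank qualified, so that likeness used 3 classes in place of 4. The replicate numbers did not pair mice (correlation of deviations -0.000207 over all cytosines and -0.028 over the Pax cytosines). The fits were tested on simulated data. Of 200 cytosines changed by 50 points, 143 were called. Of 200 classes of genes changed by 15 points 57 were called, and 124 at 30 points. Differences between strains can therefore be missed where 0 were called.

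Named genes were all members, the partner and target lists, and the 3 genes most like the family. Genes whose start lies in a Pax gene or flank were named where their promoter held common cytosines. The 3 cytosines with the largest strain difference were also named. Some genes of the lists are not reported here and were left out of the counts. Members and lists were chosen with earlier results of these data known, and distance bins, density classes, patches and printed sequences after their values were seen. Patches are cytosines less than 500 bp from the next. Promoter sequences came from RefSeq, where 7 of the 9 members matched. R 4.3.3 with limma 3.58.1 and data.table (version 1.17.8), and Python 3.11.15 with NumPy 2.4.6, SciPy 1.17.1, pandas 2.3.3, numba 0.67.0 and matplotlib 3.10.9 were used.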

Additional observations from a re-analysis of the deposited data

Results flagged for a closer look

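Pax4 had no cytosine in all 4 mice, but 3 in its 3′ flank had at least 10 reads in Mixed-2, B6-1 and B6-2 and are not listed for Mixed-1, whose file holds no site under 10 reads, and they entered no comparison. They are listed because their methylation was above the limit that a count of 0 allows at their lowest coverage (4.48%, 4.05% and 30%). At chr6 position 28440149 the mean of 3 mice was 95.5%, between 92.5% and 98.2%. At 28440154 it was 74.4%, between 62.2% and 83.8%. At 28440278 it was 71.8%, between 57.1% and 80%, on 10 to 37 reads. With 2 mice per strain, no group was large enough to ask whether 1 mouse stood apart from the rest.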

How the results depend on the processing

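The lower mean methylation of Pax genes than of other genes kept its direction in all 5 classes under every alternative run and without each mouse. With other settings the differences in internal exons ranged from -66.5 to -44.1 points. The -66.5 was at a coverage of at least 20, where Pax5 and Pax8, the highest genes, dropped out. The differences ranged from -54.9 to -37 in the rest of the body and -55.3 to -17.3 in 5′ flanks. In terminal exons they ranged from -47.7 to -27.8. In promoters they ranged from -10.1 to -0.172, and there the median Pax gene was higher than the median of the others. Internal exons exceeded promoters by 6.95 to 29.3 points, on sets of genes that differed between these settings. No p of these tests could pass 0.05 with 4 mice. The flanks exceeded promoters by 0.548 points, which turned to -0.559 with flanks of 2000 bp, where Pax2 and Pax3 dropped out. Strain differences of family means turned direction for promoters with all sites of each mouse (0.157), pooled reads (0.0714) and promoters of 500 bp (0.0601), for the rest of the body with all sites (-1.43) and pooled reads (-1.04), and for 5′ flanks with all sites (-0.102). Leaving out 1 mouse gave -0.174 to 0.132 in promoters and -6.92 to 0.911 in terminal exons. When mice were blocked by replicate number, the strain difference stayed at 1.61 points in internal exons (exact sign-flip permutation, p = 0.5), 0.573 in the rest of the body and 0.482 in flanks, the block left 0 Pax cytosines and 0 classes called, and the series had 121 called cytosines. Strain-variable Pax cytosines numbered 0 under the other alternatives, 0 to 2 without 1 mouse (2 without Mixed-2) and 2 by Fisher's exact test. A strain left with 1 mouse was assumed to vary like the other. In the series the calls were 70, against 142 at an adjusted p under 0.05, 61 at a coverage of 20, 0 with limma on log2 ratios, 429 without Mixed-1, 578 without Mixed-2 and 0 without either B6 mouse. Of 270 levels of single genes and classes under alternatives that could move them by 1 SD, 209 moved by less, and the largest shift, 36.2 points, was Pax8's rest of the body with promoters of 2000 bp (52.9% in place of 16.7%). Leaving out Pax5 and Pax8, or counting other protein-coding genes only, was added after the data were seen.
Depth limits single cytosines, and the 3 to 5 cytosines behind the internal exons of Pax3, Pax5, Pax8 and Pax9 limit those means.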
